A study of Mus musculus with 9 samples.

Results

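Ribosome biogenesis genes are described here in N2a cells (Neuro-2a, a mouse neuroblastoma line) in which Arf1 was knocked down. Arf1 encodes a small GTPase of vesicle traffic at the Golgi apparatus. The genes were taken by annotation, as the rows of the deposited table whose pathway entry is "Ribosome biogenesis in eukaryotes" and which carry neither the nucleocytoplasmic transport nor the spliceosome entry. This gave 66 of 21899 genes. A further 12 genes of the pathway, among them Nmd3, Xpo1 and Ran, carry 1 of those other entries and were left out. RNA-seq libraries came from untreated cells that carried a luciferase hairpin as control (shlucif) or an Arf1 hairpin, of which there were 2 (shArf1-1 and shArf1-2), and each group had 3 libraries. All 9 libraries are of the same cell line, which stands in for neurons as a dividing tumour line, and the 6 with an Arf1 hairpin are called Arf1-deficient. The study's materials list lentiviral pLKO.1 plasmids with a puromycin marker for all 3 hairpins, and its methods describe lentiviral transduction. Whether the cells were clones or pools was not given in the sources used here.

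Ribosomes are assembled in the nucleolus, where RNA polymerase I makes a long precursor that is modified, folded, cut and packed with proteins into a small and a large subunit. Small nucleolar ribonucleoproteins (snoRNPs) of the box C/D class methylate riboses of the precursor, and those of the box H/ACA class turn uridines into pseudouridines. The small subunit (SSU) processome gathers on the precursor from the UTP-A, UTP-B, UTP-C and MPP10 complexes. GTPases and ATPases drive the large subunit forward, and some of them release and recycle its assembly factors in the cytoplasm. Ribosome production is among the costliest activities of a growing cell, and the transcription factor Myc is a known driver of its genes.

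Libraries held between 11182479 and 15594615 counts. Genes with low counts were removed, which left 12448 genes and 65 of the 66 ribosome biogenesis genes. Levels of 1 gene across libraries are given in CPM, the count divided by the TMM-scaled library size, and levels between genes in FPKM, which divides by gene length. Arf1 itself was at 697 ± 21.7 CPM (SD, n = 3) with shlucif, 266 ± 4.45 CPM (SD, n = 3) with shArf1-1 and 337 ± 17.3 CPM (SD, n = 3) with shArf1-2. Of 20 macrophage and microglia markers, 17 were tested, 16 were lower in Arf1-deficient cells and 1 (Mrc1) was higher. Their summed level was 331 to 404 CPM with shlucif and 1.60 to 3.34 CPM in the Arf1-deficient libraries, where 8 of the 20, including Spi1, Ctss and Itgam, had 0 counts in all 6. The part of these transcripts in the results was not tested. The 185 genes counted almost only in shlucif took 0.129% to 0.151% of the counts there. Of 15 tested neuronal and neuroblast markers, 11 were higher, 1 was lower and 3 did not pass, and their summed level was 2423 to 2485 CPM with shlucif and 3799 to 4518 CPM in the Arf1-deficient libraries, the part of which was not tested either. Fibroblast markers summed to 14.3 to 16.9 CPM with shlucif and to 9.06 to 11.7 CPM in the Arf1-deficient libraries, with 1 of 3 tested lower and none higher past the threshold. Astrocyte and oligodendrocyte markers summed to 42.3 to 43.5 CPM and to 29.3 to 35.9 CPM, with 2 of 3 tested lower and none higher past the threshold. Neither pair of ranges overlapped, and the part of these transcripts was not tested. In such bulk libraries fewer cells of a type and less RNA per cell cannot be told apart.

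Most ribosome biogenesis genes were higher in Arf1-deficient cells. Of the 65 tested, 41 rose, 9 fell and 15 did not pass the threshold, which was 0.05 for the Benjamini-Hochberg adjusted p, taken over all genes, of the quasi-likelihood test of edgeR. The 41 are 63.1% of the genes tested in the pathway, where 31.6% of all 12448 genes were higher, and the 9 are 13.8%, where 32.9% of all genes were lower. The median log2 fold change was 0.31 over the 65 genes and 0.00 over all genes. The changes were modest in size, since the 41 rises ran from 1.15-fold to 2.31-fold. A rise with a log2 fold change of 0.5 or more was seen in 16 of the 65 genes and in 1919 of all 12448 genes. The 2 sets of libraries did not overlap, with the Arf1-deficient ones higher, for 38 of the 65 genes (58.5%) and for 27.9% of all genes. They did not overlap in the other direction for 9 of the 65 (13.8%) and for 30.1% of all genes.

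**Figure D1:**
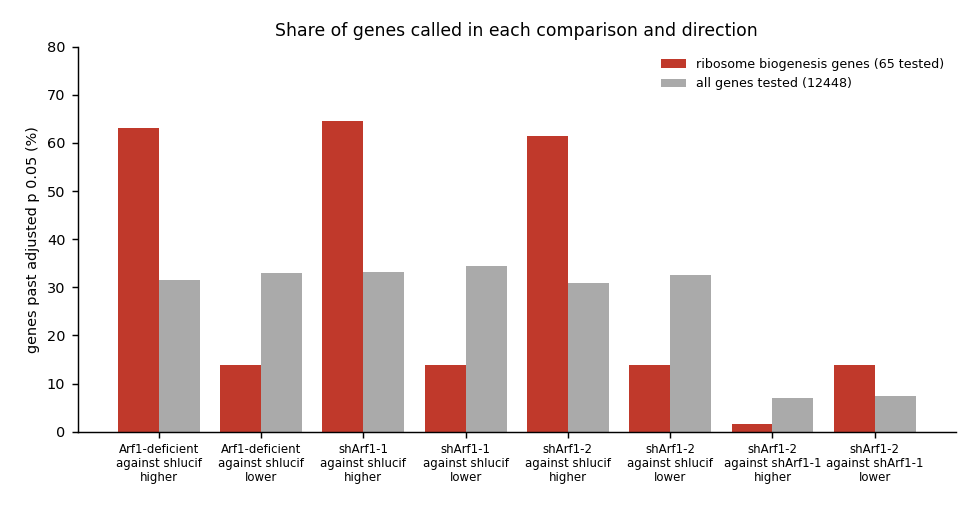
Percent of genes past the adjusted p threshold of 0.05 in each comparison and direction, for the 65 tested ribosome biogenesis genes (red bars) and all 12448 tested genes (grey bars). In each comparison with shlucif the red bar for higher genes, between 61.5% and 64.6%, stands above the grey one, and the red bar for lower genes, at 13.8%, stands below it.

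The genes' share of all counts was 0.497% to 0.505% in the shlucif libraries, 0.627% to 0.655% with shArf1-1 and 0.628% to 0.638% with shArf1-2. Summed over the 66 genes this was 5135 to 5214 CPM with shlucif, 6226 to 6477 CPM with shArf1-1 and 6122 to 6299 CPM with shArf1-2. Every Arf1-deficient library was thus above every shlucif library in this sum. The median gene of an Arf1-deficient library was between 0.24 and 0.35 above its own shlucif mean on the log2 scale, and the 3 shlucif libraries lay between -0.01 and 0.01.

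**Figure D2:**
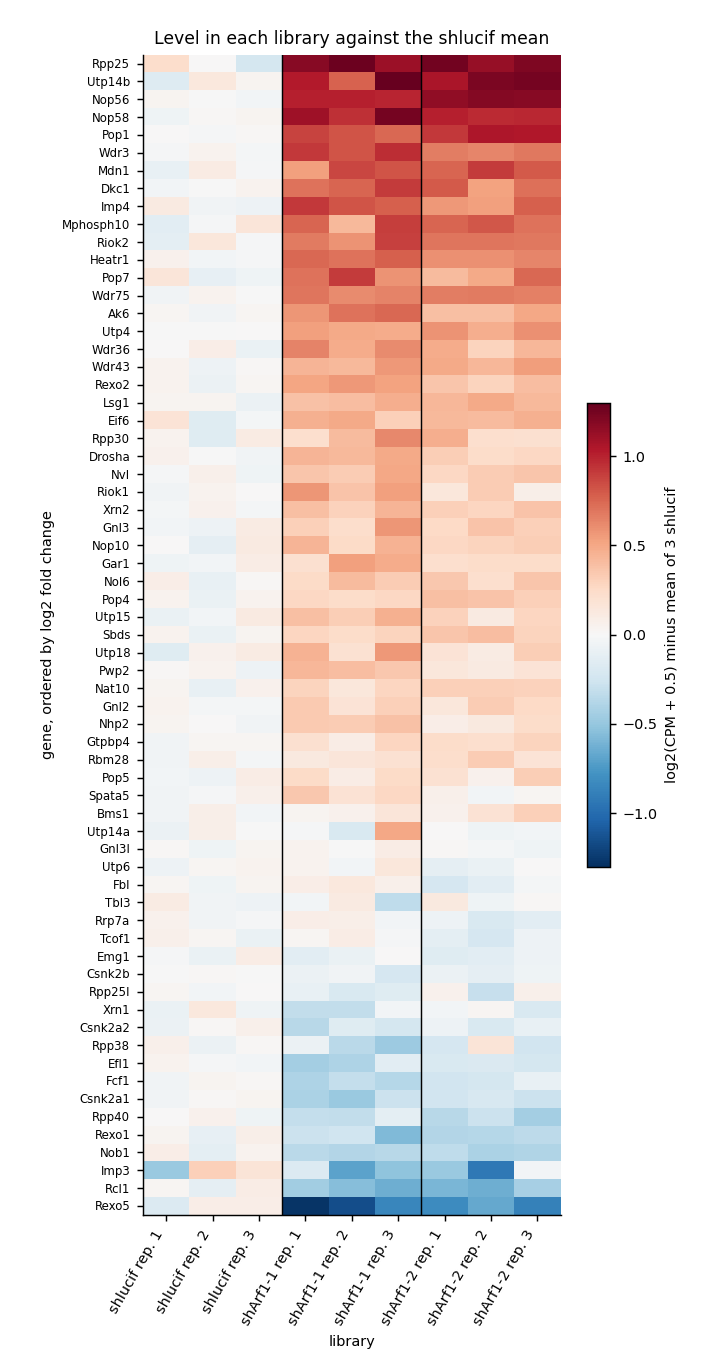
Level of each of the 65 tested genes (rows, ordered by log2 fold change) in each of the 9 libraries (columns), as log2 CPM minus the mean of the 3 shlucif libraries, red above and blue below it. Rows from Rpp25 down to Pop5 are red in all 6 Arf1-deficient libraries, and rows such as Rexo5 and Rcl1 are blue in all 6.

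Levels per length spread widely among the genes. With shlucif the median was 13.4 FPKM. Nhp2, a core protein of box H/ACA snoRNPs, had the highest FPKM, at 126 ± 3.48 (SD, n = 3), and it stayed first in Arf1-deficient cells at 157 FPKM. The next in order were Imp3 at 58.0 ± 16.3 FPKM (SD, n = 3), Csnk2b at 57.5 ± 1.09 FPKM (SD, n = 3), Nop10 at 53.4 ± 3.87 FPKM (SD, n = 3) and Fbl at 50.4 ± 1.15 FPKM (SD, n = 3), whose ranges overlapped from each gene to the next. At the low end, Utp14b was at 1.25 ± 0.15 FPKM (SD, n = 3) and Rpp40 at 1.59 ± 0.08 FPKM (SD, n = 3). Along the whole order, 52 of 65 pairs of neighbours had overlapping shlucif ranges. The order depends on the annotated exon length, which was 1146 bases for Nhp2 and 4209 bases for Fbl. In CPM, which does not divide by length, Csnk2a1 (249), Gnl3l (242) and Fbl (219), among others, were above Nhp2 (149) with shlucif. Fbll1, a fibrillarin-like gene with 0 to 5 counts with shlucif and 0 to 7 counts in the Arf1-deficient libraries, was the gene below the low-count filter, and no change was estimated for it.

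Both snoRNP classes held genes that rose. Among the box C/D core proteins, Nop56 (chromosome 2, 130274430 to 130279313, plus strand, GRCm38) was at 179, 174 and 170 CPM in the 3 shlucif libraries, at 353, 352 and 346 CPM with shArf1-1 and at 387, 398 and 395 CPM with shArf1-2. The groups did not overlap, and the log2 fold change was 1.09 (standard error 0.06, adjusted p = 7.57e-12). Its partner in the same particle, Nop58 (chromosome 1, 59684971 to 59719044, plus strand), was at 92.9, 97.4 and 99.1 CPM with shlucif, at 208, 187 and 229 CPM with shArf1-1 and at 194, 190 and 191 CPM with shArf1-2. All 6 Arf1-deficient libraries were well above the controls here as well (log2 fold change 1.05, standard error 0.07, adjusted p = 1.03e-10). Fbl, which encodes fibrillarin, the methyltransferase of the particle (chromosome 7, 28169710 to 28179269, plus strand), was at 222, 211 and 223 CPM with shlucif, at 232, 241 and 229 CPM with shArf1-1 and at 188, 198 and 214 CPM with shArf1-2. The ranges overlapped, and the log2 fold change was -0.01 (standard error 0.07, adjusted p = 0.897), with a sign that turned under library size scaling.

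Because a ratio of 2 genes within a library does not depend on scaling, the counts of the box C/D genes were also set against each other. These ratios, like the other gene pairs below, were chosen after the values were seen and are given without a test. The log2 ratio of Nop56 to Fbl counts was -0.33 ± 0.06 (SD, n = 3) with shlucif and 0.78 ± 0.22 (SD, n = 6) in Arf1-deficient cells. The log2 ratio of Nop58 to Fbl was -1.18 ± 0.07 (SD, n = 3) and -0.12 ± 0.15 (SD, n = 6). Neither range overlapped. By contrast, the log2 ratio of Nop56 to Nop58 was 0.85 ± 0.08 (SD, n = 3) and 0.90 ± 0.19 (SD, n = 6), with overlapping ranges.

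All 4 box H/ACA proteins rose. Dkc1, the pseudouridine synthase dyskerin, was at 52.8, 53.8 and 55.7 CPM with shlucif, at 88.6, 92.0 and 101.8 CPM with shArf1-1 and at 94.2, 78.1 and 89.2 CPM with shArf1-2. The groups did not overlap (log2 fold change 0.75, standard error 0.07, adjusted p = 5.88e-08). Nop10 and Gar1, which complete the particle, changed by 0.34 and 0.33 on the log2 scale, and Nhp2 by 0.25 (standard error 0.07, adjusted p = 0.00235). Dkc1 was thus the member of its particle with the largest estimate.

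**Figure D3:**
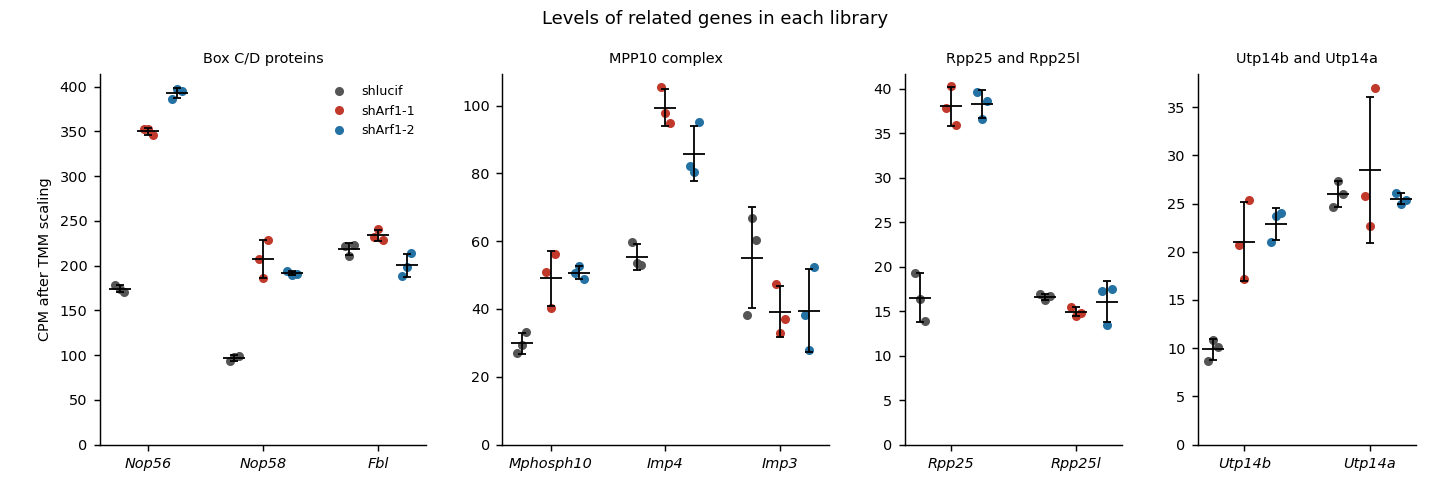
CPM of related genes in every library, coloured by group, with the mean (dash) and SD (bar) of 3 libraries. Nop56, Nop58, Mphosph10, Imp4, Rpp25 and Utp14b have all 6 Arf1-deficient points above the shlucif points, while Fbl, Imp3, Rpp25l and Utp14a have overlapping points.

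The SSU processome was read complex by complex. In UTP-A, which binds the precursor first, 5 of 5 genes rose, with a median log2 fold change of 0.53. Heatr1, the largest scaffold protein of this complex, was at 72.3, 67.99 and 68.7 CPM with shlucif, and its Arf1-deficient libraries ran from 105.3 to 120 CPM with a median of 111 CPM. No libraries overlapped between the groups, and the log2 fold change was 0.68 (standard error 0.06, adjusted p = 1.51e-08). Lgals8, whose annotated exons overlap 2.0% of the Heatr1 exons on the opposite strand, moved the other way, from between 1445 and 1539 counts to between 559 and 841 counts. Wdr75, Utp4, Wdr43 and Utp15 rose by 0.66, 0.53, 0.48 and 0.32 on the log2 scale.

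In UTP-B, another early scaffold, 4 of 6 genes rose. The largest rise was that of Wdr3, from 35.6, 37.1 and 35.4 CPM with shlucif to between 56.1 and 70.5 CPM with a median of 61.2 CPM (log2 fold change 0.79, standard error 0.08, adjusted p = 1.17e-07). Wdr36, Utp18 and Pwp2 rose by 0.50, 0.31 and 0.28. Tbl3 and Utp6 did not pass, at -0.02 and -0.01.

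Of the MPP10 complex, which joins the processome as a unit, Mphosph10 and Imp4 rose and Imp3 did not pass. Mphosph10 was at 27.1, 29.4 and 33.3 CPM with shlucif and between 40.2 and 56.1 CPM in Arf1-deficient cells, with a median of 50.7 CPM (log2 fold change 0.74, standard error 0.10, adjusted p = 2.04e-06). Imp4 was at 59.8, 53.5 and 52.9 CPM with shlucif and between 80.3 and 105.4 CPM, with a median of 95.0 CPM (log2 fold change 0.74, standard error 0.08, adjusted p = 3.33e-07). Imp3 was at 38.2, 66.8 and 60.4 CPM in the shlucif libraries, at 47.5, 33.0 and 37.2 CPM with shArf1-1 and at 38.2, 27.9 and 52.3 CPM with shArf1-2. Its spread within groups was wide, and the log2 fold change of -0.49 had a standard error of 0.23 (adjusted p = 0.0952). The log2 ratio of Mphosph10 to Imp3 counts was -0.85 ± 0.34 (SD, n = 3) with shlucif and 0.37 ± 0.36 (SD, n = 6) in Arf1-deficient cells, without overlap.

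UTP-C and its casein kinase 2 subunits had a median of -0.10. Nol6 was the 1 gene of 5 that rose, by 0.32. The catalytic subunits of casein kinase 2, which phosphorylates many proteins outside the nucleolus too, both fell. Csnk2a1 went from 240, 250 and 256 CPM with shlucif to between 178 and 216 CPM with a median of 205 CPM (log2 fold change -0.31, standard error 0.06, adjusted p = 0.000124), without overlap. Csnk2a2 was at -0.18 (standard error 0.07, adjusted p = 0.020), its groups overlapped, and it did not pass without shlucif replicate 2 (adjusted p = 0.0632) or replicate 3 (adjusted p = 0.113) or with library size scaling (-0.12, adjusted p = 0.122). Csnk2b, the regulatory subunit, and Rrp7a did not pass, at -0.10 and -0.04.

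Among the other 8 SSU factors, 2 rose, 2 fell and 4 did not pass, and their median log2 fold change was 0.00. Utp14b is an autosomal copy of Utp14a, a cofactor of a pre-rRNA helicase. Utp14b was at 8.67, 10.9 and 10.1 CPM with shlucif, at 20.7, 17.1 and 25.3 CPM with shArf1-1 and at 21.02, 23.7 and 24.0 CPM with shArf1-2 (log2 fold change 1.16, standard error 0.13, adjusted p = 2.19e-07). Utp14a, in contrast, was at 24.7, 27.4 and 26.0 CPM with shlucif and between 22.7 and 37.0 CPM in Arf1-deficient cells, with a log2 fold change of 0.06 (adjusted p = 0.694). The log2 ratio of the copy to Utp14a counts was -1.40 ± 0.09 (SD, n = 3) with shlucif and -0.29 ± 0.18 (SD, n = 6) in Arf1-deficient cells. Utp14b lies inside Acsl3 on the same strand (chromosome 1, 78658038 to 78671512), with 3.2% of its exonic bases shared, so that reads there could be assigned to either gene. Acsl3 counts ran from 1141 to 1176 with shlucif and from 883 to 1399 in Arf1-deficient cells.

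Nat10, the acetyltransferase of small subunit rRNA, rose by 0.28 (standard error 0.06, adjusted p = 0.00068), from between 67.8 and 75.3 CPM to between 80.3 and 89.9 CPM. Rcl1, a cyclase-like protein of early rRNA cleavage, fell from 96.8, 87.8 and 101.8 CPM to between 61.3 and 70.4 CPM with a median of 63.9 CPM (log2 fold change -0.55, standard error 0.07, adjusted p = 7.19e-07). Fcf1, a PIN-domain protein of the processome, fell by 0.27 on the log2 scale (adjusted p = 0.0045). Both falls were without overlap between the groups. Tcof1, which encodes treacle, a nucleolar partner of RNA polymerase I, was at 121, 118 and 109 CPM with shlucif and between 99.3 and 124 CPM otherwise. Its log2 fold change of -0.05 (adjusted p = 0.539) had a sign that turned under library size scaling. Bms1, a GTPase, and Emg1, a methyltransferase, were at 0.14 and -0.10 and did not pass.

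RNase P and RNase MRP, which share most of their proteins and cut pre-tRNA and pre-rRNA, held 9 genes, of which 6 rose and 1 fell. The largest change of all the ribosome biogenesis genes was that of Rpp25 (chromosome 9, 57504026 to 57505448, plus strand), an RNA-binding subunit. It was at 19.3, 16.4 and 13.9 CPM with shlucif, at 37.9, 40.3 and 35.9 CPM with shArf1-1 and at 39.7, 36.6 and 38.7 CPM with shArf1-2. All 6 Arf1-deficient libraries were above the controls (log2 fold change 1.21, standard error 0.10, adjusted p = 2.96e-09). Rpp25l, its paralog, was at 16.9, 16.3 and 16.7 CPM with shlucif and between 13.5 and 17.5 CPM otherwise, with a log2 fold change of -0.10 (adjusted p = 0.423). Per library, the log2 ratio of Rpp25 to Rpp25l counts was -0.02 ± 0.23 (SD, n = 3) with shlucif and 1.305 ± 0.13 (SD, n = 6) in Arf1-deficient cells.

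Pop1, the scaffold subunit of both enzymes, was at 19.2, 18.9 and 19.5 CPM with shlucif and between 32.5 and 40.3 CPM in Arf1-deficient cells, with a median of 36.2 CPM (log2 fold change 0.93, standard error 0.09, adjusted p = 3.86e-08). Pop7, Rpp30, Pop4 and Pop5 rose by 0.66, 0.37, 0.32 and 0.20. Rpp40 fell from 10.7, 11.1 and 10.2 CPM to between 7.73 and 9.76 CPM with a median of 8.47 CPM. The log2 change of -0.32 (standard error 0.12, adjusted p = 0.0278) did not pass when any of the 3 shlucif libraries (adjusted p from 0.0503 to 0.10) or shArf1-2 replicate 3 (adjusted p = 0.0561) was left out, or with library size scaling (-0.26, adjusted p = 0.0705). Rpp38 did not pass, at -0.20.

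**Figure D4:**
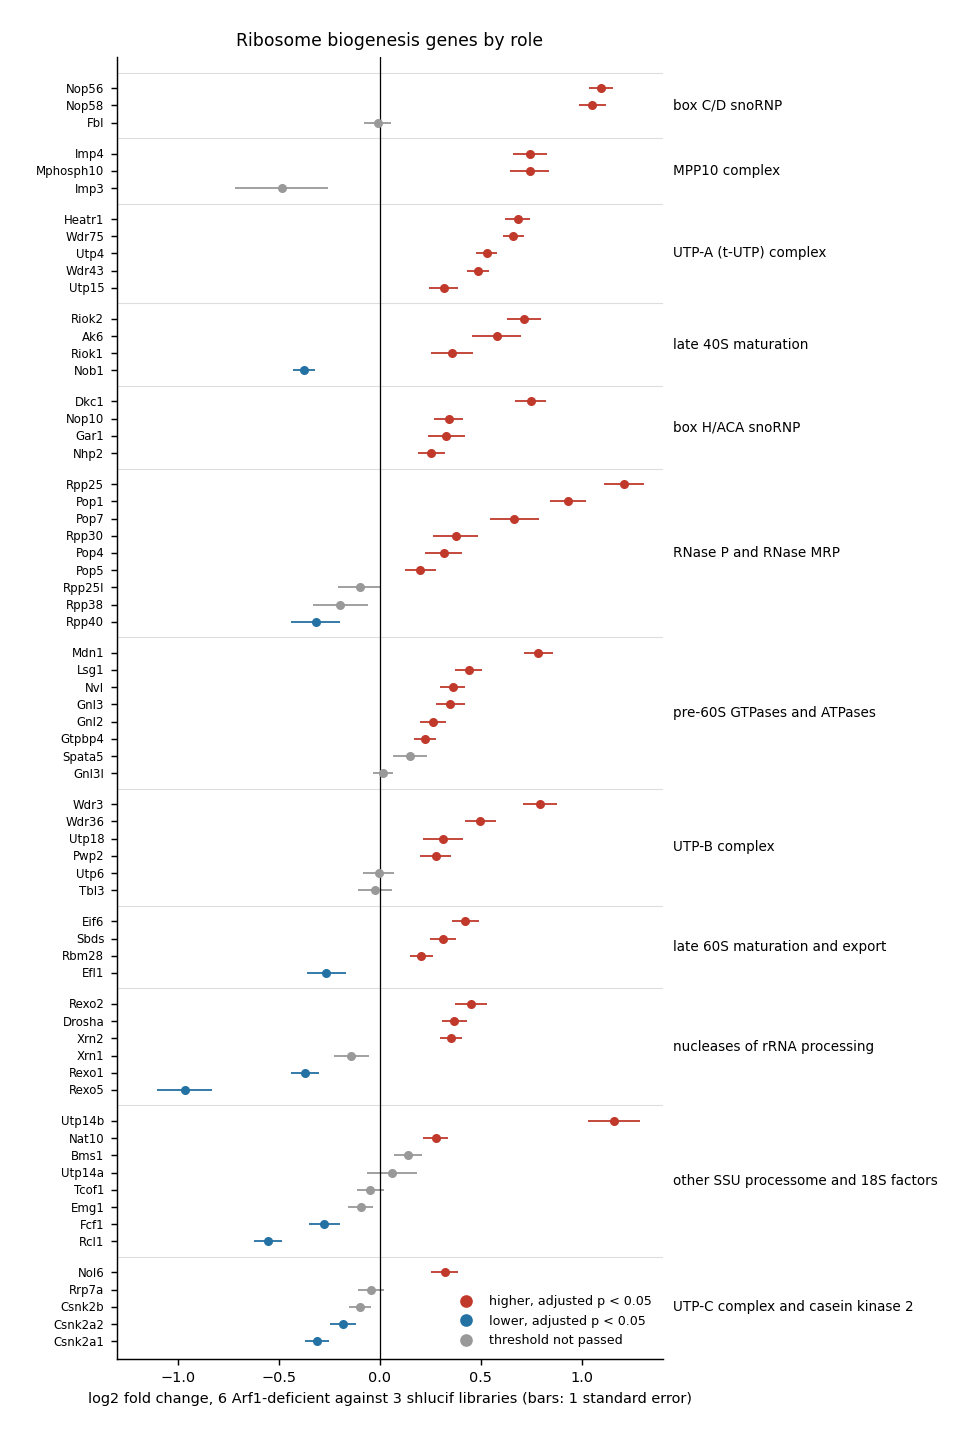
Log2 fold change of 6 Arf1-deficient against 3 shlucif libraries for the 65 tested genes, grouped by role with the roles ordered by their median, bars showing 1 standard error. All 5 UTP-A and all 4 box H/ACA genes are higher (red), and genes of the UTP-C and casein kinase 2 group lie on both sides of 0.

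The nucleases divided into 3 that rose, 2 that fell and 1 that did not pass. Rexo5, an RNA exonuclease, had the largest fall of the 65 genes. It was at 14.2, 17.1 and 17.04 CPM with shlucif, at 6.36, 6.93 and 8.68 CPM with shArf1-1 and at 8.87, 9.94 and 8.50 CPM with shArf1-2. The groups did not overlap, and the log2 fold change was -0.97 (standard error 0.13, adjusted p = 4.09e-06). Rexo1, of the same exonuclease family, fell from 122, 110 and 125 CPM to between 79.4 and 98.95 CPM (log2 fold change -0.37, standard error 0.07, adjusted p = 9.32e-05). Rexo2, an oligoribonuclease, Drosha, best known for cutting microRNA precursors, and Xrn2, the nuclear exonuclease, rose by 0.45, 0.37 and 0.35. Xrn1, its cytoplasmic counterpart in mRNA decay, was at -0.14 and did not pass (adjusted p = 0.156).

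Of 8 pre-60S GTPases and ATPases, 6 rose and none fell past the threshold. Mdn1, the giant ATPase midasin that strips assembly factors from large subunit precursors, was at 152, 175 and 161 CPM with shlucif, at 236, 296 and 287 CPM with shArf1-1 and at 275, 305 and 283 CPM with shArf1-2. The groups did not overlap (log2 fold change 0.78, standard error 0.07, adjusted p = 2.18e-08). Lsg1, Nvl, Gnl2 and Gtpbp4 rose by 0.44, 0.36, 0.26 and 0.22. Gnl3, the nucleolar GTPase nucleostemin, rose by 0.35 (standard error 0.07, adjusted p = 0.000356), from between 93.1 and 105 CPM to between 115 and 146 CPM. Its paralog Gnl3l had the higher FPKM with shlucif, at 42.2 ± 0.98 against 15.6 ± 0.94 (SD, n = 3). The length used for Gnl3 was 6101 bases, of a gene from 31012433 to 31019152 on chromosome 14, so this order depends on the annotation. The log2 fold change of Gnl3l was 0.01 (adjusted p = 0.827). Spata5, an ATPase that recycles factors in the cytoplasm, was at 0.15 and did not pass with both hairpins pooled (adjusted p = 0.121).

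The late steps held genes of both directions. For the large subunit, Eif6, which keeps the subunits apart until the end of maturation, was at 143, 113 and 124 CPM with shlucif and between 157 and 177 CPM in Arf1-deficient cells, with a median of 171 CPM (log2 fold change 0.42, standard error 0.07, adjusted p = 1.62e-05). Sbds, the cofactor of its release, was at 59.6, 54.5 and 59.3 CPM with shlucif and between 68.4 and 76.2 CPM otherwise (log2 fold change 0.31, standard error 0.06, adjusted p = 0.000297). Efl1, the GTPase that acts with Sbds, went from between 20.1 and 21.3 CPM to between 15.0 and 18.7 CPM, a fall of all 6 libraries below the controls. The log2 change of -0.27 (standard error 0.10, adjusted p = 0.0221) did not pass without shlucif replicate 1 (adjusted p = 0.0799) or replicate 2 (adjusted p = 0.0517) or with library size scaling (-0.20, adjusted p = 0.0774). Rbm28, a nucleolar RNA-binding protein that was listed with the large subunit genes here but is not a late factor, rose by 0.20.

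For the small subunit, the kinases Riok2 and Riok1 and the ATPase Ak6 rose by 0.71, 0.36 and 0.58. In the same annotation, 56.5% of the Ak6 exonic bases are shared with Taf9 on the same strand, which had 0 to 4 counts in the libraries, so the Ak6 level may hold reads of both genes. Nob1, the endonuclease that makes the mature end of small subunit rRNA, fell. It was at 154, 133 and 149 CPM with shlucif, at 114, 111 and 113 CPM with shArf1-1 and at 115, 109 and 110 CPM with shArf1-2. No libraries overlapped, and the log2 fold change was -0.37 (standard error 0.06, adjusted p = 8.54e-06).

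Each hairpin was also compared alone with shlucif, against the same 3 control libraries. With shArf1-1, 42 of the 65 genes were higher (64.6%, against 33.1% of all genes) and 9 were lower (13.8%, against 34.4%). With shArf1-2, 40 were higher (61.5%, against 30.9%) and 9 were lower (13.8%, against 32.6%). The lower genes were not all the same. Efl1, Csnk2a2 and Xrn1 passed as lower with shArf1-1 (adjusted p = 0.00902, 0.000988 and 0.0253) but not with shArf1-2 (0.0837, 0.0964 and 0.459). Fbl, Rpp40 and Rrp7a passed as lower with shArf1-2 (adjusted p = 0.0412, 0.0191 and 0.0475) but not with shArf1-1 (0.114, 0.106 and 0.529). The median log2 fold change of the 65 genes was 0.35 with shArf1-1 and 0.25 with shArf1-2.

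The hairpins were also compared with each other, a test that does not use the shlucif level. Here 1 gene was higher with shArf1-2 (1.54%, against 6.98% of all genes) and 9 were lower (13.8%, against 7.46%). Nop56 was the gene that was higher, by 0.17 (standard error 0.05, adjusted p = 0.0163). Riok1 was at 45.8, 39.7 and 44.5 CPM with shArf1-1 and at 33.9, 38.4 and 32.3 CPM with shArf1-2, a log2 difference of -0.32 (standard error 0.09, adjusted p = 0.00933) without overlap. Against shlucif, Riok1 passed with shArf1-1 (0.51, adjusted p = 3.9e-06) and not with shArf1-2 (0.19, adjusted p = 0.0581). Spata5 was at 70.5, 62.9 and 66.8 CPM with shArf1-1 and at 57.8, 53.8 and 56.4 CPM with shArf1-2, a difference of -0.25 (standard error 0.07, adjusted p = 0.0128). Spata5 passed against shlucif with shArf1-1 (0.27, adjusted p = 0.00105), and its estimate with shArf1-2 was 0.02 (adjusted p = 0.834). Bms1, which did not pass with the hairpins pooled, passed with shArf1-2 (0.19, adjusted p = 0.0177) and not with shArf1-1 (0.09, adjusted p = 0.279).

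Pwp2 was at 80.7, 78.8 and 76.3 CPM with shArf1-1 and at 66.1, 64.9 and 67.8 CPM with shArf1-2, a difference of -0.25 (standard error 0.07, adjusted p = 0.00951). Against shlucif, Pwp2 passed with shArf1-1 (0.39, adjusted p = 3.25e-06) and not with shArf1-2 (0.15, adjusted p = 0.0512). Fbl had a log2 difference of -0.22 (standard error 0.05, adjusted p = 0.00421), with all 3 shArf1-2 libraries below all 3 shArf1-1 libraries. Against shlucif, Fbl was at 0.10 with shArf1-1 (adjusted p = 0.114) and at -0.13 with shArf1-2 (adjusted p = 0.0412). Wdr3, Imp4, Nhp2, Drosha and Rrp7a differed by -0.24, -0.21, -0.20, -0.18 and -0.18. The number of genes that differed was 3 without shArf1-1 replicate 1, and 5, 4 and 6 without shArf1-2 replicate 1, 2 and 3. Among all genes the number fell too, from 1798 in the main fit to 1159, 1194, 1203 and 1296 in these settings.

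**Figure D5:**
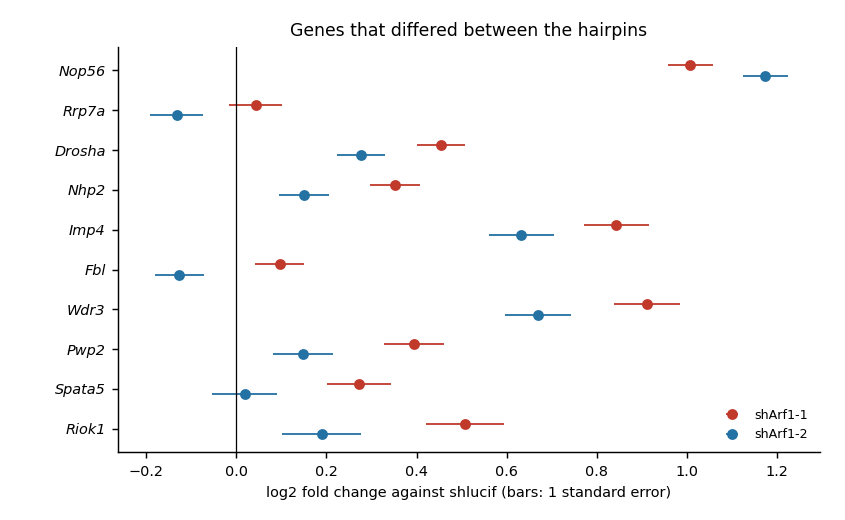
Log2 fold change against shlucif with shArf1-1 (red) and shArf1-2 (blue), bars showing 1 standard error, for the 10 genes whose levels differed between the hairpins. Nop56 is the gene that is higher with shArf1-2, and the other 9, from Riok1 to Rrp7a, are lower with it.

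Genes of the same process outside the annotation rule were counted in the same way. Of 85 further assembly factors, 53 were higher, 12 were lower and 20 did not pass, with a median log2 fold change of 0.27. Over all 12448 genes, 31.6% were higher and 32.9% lower. Ncl, the abundant nucleolar protein nucleolin, rose from between 1116 and 1159 CPM to between 1296 and 1505 CPM (log2 fold change 0.27, adjusted p = 0.000106). Npm1, nucleophosmin, of similar abundance, fell from between 1374 and 1420 CPM to between 965 and 1110 CPM (log2 fold change -0.45, standard error 0.05, adjusted p = 1.59e-07). Bop1 rose by 0.43 (adjusted p = 1.26e-05), and Pes1, its partner in large subunit processing, was at 0.08 and did not pass (adjusted p = 0.262).

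Of 20 tested genes of RNA polymerase I transcription, 10 were higher, 4 were lower and 6 did not pass, with a median of 0.27, beside the same shares of all genes. The largest subunits of the enzyme moved most among those named. Polr1a was at 67.4, 69.4 and 58.3 CPM with shlucif and between 126 and 137 CPM in Arf1-deficient cells (log2 fold change 1.00, standard error 0.06, adjusted p = 1.08e-10), and Polr1b changed by 1.12 (standard error 0.07, adjusted p = 4.13e-11). The initiation factors Ubtf and Rrn3 rose by 0.66 and 0.50.

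In a list of 9 genes for the Myc family, Myc and Mycn among them, 3 were higher, 4 were lower and 2 did not pass, with a median of -0.08. Of all genes 31.6% were higher and 32.9% lower, which is near these shares. The tally is of the list as a whole and not of Myc or Mycn. Myc was at 117, 117 and 108 CPM with shlucif, at 226, 216 and 217 CPM with shArf1-1 and at 197, 188 and 199 CPM with shArf1-2 (log2 fold change 0.86, standard error 0.06, adjusted p = 7.41e-10). Mycn, the family member typical of neuroblastoma, was at 38.9, 41.7 and 41.3 CPM with shlucif, at 97.96, 91.4 and 85.6 CPM with shArf1-1 and at 60.2, 54.2 and 57.6 CPM with shArf1-2. The 3 groups did not overlap, and Mycn was lower with shArf1-2 than with shArf1-1 by 0.67 on the log2 scale (adjusted p = 2.02e-08).

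Myc proteins bind the E-box, so promoters of the ribosome biogenesis genes were searched for its letters, CACGTG, which read the same on both strands. RefSeq promoter windows of GRCm38.p6, from 250 bases before to 50 after each start, were found for 54 of the 66 genes. The letters were in 10 of them (18.5%), in 8 of 35 genes that rose (22.9%), in 0 of 8 that fell and in 2 of 10 that did not pass. In Mdn1, Utp4, Wdr43 and Xrn2, which rose, and in Rpp38, which did not pass, they lay after the start and not before it. Over the same whole window, the letters were in 11.7% of all tested genes with a window, in 11.3% of those that were higher, in 12.3% of those that were lower and in 8.09% of all genes in the promoter table. Another 3 motifs were searched on both strands. CCGGAAG, the ETS motif, was in 20 of the 54 genes (37.0%, against 20.2% of all tested genes), CCAAT in 21 (38.9%, against 43.3%) and TATAAA in 2 (3.7%, against 8.42%). By direction, the ETS motif was in 12 of 35 genes that rose (34.3%, against 22.8% of all higher genes) and in 4 of 8 that fell (against 16.5% of all lower genes). A match is a description of the letters and no evidence of binding, and no match says only that they are not in the window. The stretches below are shown because their E-box, in capitals, and its flanks lie wholly before the start that RefSeq gives and outside exons of the GENCODE annotation.
Utp14b: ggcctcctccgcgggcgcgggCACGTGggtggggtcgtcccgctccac
Rexo2: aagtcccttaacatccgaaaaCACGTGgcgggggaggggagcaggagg
Rrp7a: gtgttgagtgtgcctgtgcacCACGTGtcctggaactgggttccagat
Read 5′ to 3′ on the gene's strand, they are chr1:78658356-78658403 (plus strand), chr9:48480748-48480795 (minus strand) and chr15:83122983-83123030 (minus strand), and the motif begins 63, 163 and 208 bases before the RefSeq start. For Utp14b that start is base 78658440, inside the gene as GENCODE draws it from 78658038, so the stretch lies in an intron of the longer GENCODE form. Utp14b and Rexo2 rose, and Rrp7a did not pass.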

How the data were processed

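The authors deposited 1 table with a whole-number read count, not normalized, and an FPKM value for each gene and library. The deposited FPKM values equal count divided by gene length and library total, within 0.1% for 100% of values. Per the labels, mRNA was enriched with oligo(dT), fragmented and reverse transcribed from random primers, and the submitters' processing notes name mm10. The aligner, the counting tool and the use of strand are not given in the sources used here, so reads of a gene and its antisense partner cannot be told apart. Columns named shArf2 were read as shArf1-2, because the labels hold 2 Arf1 hairpins beside the luciferase one and no Arf2 hairpin. Taken alone the column name would point to another gene, Arf2, so this reading rests on the labels. Coordinates are those of GENCODE M21 by identifier in place of the table's own, which differ from GRCm38, and 8 broken lines of the table were left out.

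Counts were analysed with edgeR 4.0.16 in R 4.3.3 (filterByExpr, TMM, robust glmQLFit, glmQLFTest) over all genes, as 6 against 3 libraries and as 3 groups, with Benjamini-Hochberg adjustment at 0.05. Alternatives used DESeq2 1.42.0, limma 3.58.1, other scalings and filters, FPKM with a pseudocount of 1 or 0.1, a minimum change, a replicate block, the average of both hairpin contrasts and leaving out each library. The fit was tested on simulated data. Library totals of 11182479 to 15594615 counts set the precision. The sources do not say that libraries came from separate cultures, so p-values measure the spread between these libraries, which may be technical.

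The genes and lists were chosen with earlier results of these data known. Genes named were the 10 largest rises and 10 largest falls that passed (9 genes fell), where the higher group had 5 CPM or more, the 3 largest hairpin differences each way, those below the filter, 13 genes with a known role and 10 outside the rule. The other genes were named after their values were seen.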

Additional observations from a re-analysis of the deposited data

Results flagged for a closer look

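In Nat10, the lowest of the 6 Arf1-deficient libraries, shArf1-1 replicate 2 at 80.3 CPM, stood apart from the nearest at 87.9 CPM, with a gap of 0.787 of the whole range. Such gaps were looked for in 31 genes, and chance gives about 1 in 20 of them. This library was still above every shlucif library.

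The effect of the hairpins differed by the edgeR contrast between them, on the log2 scale and as shArf1-2 minus shArf1-1, by 0.17 in Nop56, by -0.32 in Riok1, by -0.25 in Spata5 and by -0.25 in Pwp2. Arf1 itself was higher with shArf1-2 than with shArf1-1, by 0.34 on the log2 scale (adjusted p = 1.16e-05), and its part in these differences was not tested.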

How the results depend on the processing

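Leaving out any 1 library, the count of genes higher in Arf1-deficient cells stayed between 39 and 42, that of genes lower between 6 and 9, and the median log2 fold change of the 65 genes between 0.27 and 0.33. Over all genes tested, between 3509 and 3942 were then higher and between 3747 and 4177 lower. With a minimum log2 fold change of 0.5 tested, 13 of the 65 genes rose and 1 fell with both hairpins pooled. Of all 12448 genes, 8.56% rose and 13.4% fell at that minimum. With shArf1-1 the counts were 14 and 1, beside 1265 and 1916 of all genes. With shArf1-2 they were 12 and 1, beside 989 and 1548. Between the hairpins 0 of the 65 differed, but only 18 of all genes did, so this 0 does not set the 65 apart. With library size scaling 5 genes were lower with shArf1-2, as with limma on log2(FPKM + 0.1), and the median was 0.38 and 0.37. Of all genes, 3501 and 3461 were lower with shArf1-2 there, beside 4054 in the main fit. The median of all genes was 0.07 and 0.06 under these settings, beside 0.00. The number of the 65 genes that differed between the hairpins ran from 3 to 12 when 1 library was left out, and that of all genes from 1159 to 1977. The log2 fold change of Fbl was 0.0512 with library size scaling and ran from -0.0459 to 0.0277 without 1 library, and that of Tcof1 was 0.0135 with library size scaling. Why these values moved was not tested.

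Over 30 named genes and 14 settings each, 402 of 420 values kept their direction and side of the threshold, 11 were weaker (Csnk2a2, Efl1 and Rpp40), 2 passed newly (Spata5) and 5 turned in sign (Fbl and Tcof1). Samples of the same number did not deviate together (9 pairs, correlations from -0.08 to 0.09), so they were not paired in the main fit. Whether they shared a culture or preparation cannot be told from this. With the replicate block 41 of the 65 genes were higher, 9 were lower and 10 differed between the hairpins, beside 3812, 3996 and 1809 of all genes. Depth limits Fbll1, at 0 to 7 counts.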
